A study of Rattus norvegicus with 6 samples.

Results

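The 37 genes described here are targets of p53 and regulators of apoptosis, chosen by name for those roles with earlier results of these data known. In the renal cortex of rats given tris(2-chloroethyl)phosphate (TCEP), an organophosphate flame retardant, 4 of them had higher means at an unadjusted p under 0.05 (Plk2, Plk3, Gdf15 and Phlda3) and 1 had a lower mean (Bik), together 15.6% of the tested ones, against 8.36% of all tested genes. None passed the adjusted threshold. Probes on the array were matched to the genes through their accessions, and the brightest probe stood for a gene. 34 of the 37 genes had a named probe, and Trim24, Tnfrsf10b and Eda2r had none and are not analysed here. Of those 34, Pmaip1 was well above background on 0 arrays and Bcl2l11 on 1 (a vehicle array), so 32 genes were tested among 11802 tested genes in all. All 32 were well above background on all 6 arrays.

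Total RNA from renal cortex, which holds the glomeruli and most of the proximal tubules, was hybridised to single-colour Agilent arrays from male Sprague-Dawley rats, labelled as 3 biological replicates a group. The TCEP group was 3 rats dosed at 400 mg/kg/day for 4 weeks, and the vehicle group was 3 rats given corn oil over 4 weeks. All were bought at 5 weeks of age and kept on a basal diet, with no genotype in the labels beyond the strain. Levels are given as log2 processed signal after subtraction of that array's log2 75th percentile. A difference is the TCEP mean minus the vehicle mean of these log2 levels (n = 3 each). SE and adjusted p come from limma with Benjamini-Hochberg adjustment over all 11802 genes. A level belongs to its probe and single genes are not compared by level. Linear levels are summed only to describe marker lists, where the brightest probes weigh most.

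Each array measured 61657 non-control probes, of which 67.2% to 69.3% stood well above background. All TCEP arrays lay on slide 2 with scan 2 and all vehicle arrays on slide 1 with scan 1, so slide and treatment cannot be told apart in any comparison here. The tissue label was checked with markers. All 8 proximal tubule markers were measured, with a summed linear level of 1568 to 1955 on TCEP arrays and 1767 to 1878 on vehicle arrays. Of 4 adrenal markers, Cyp11b1 and Star were well above background on 0 arrays, and Cyp11b2 and Cyp11a1 on 5 of 6. Of the fat markers, Adipoq, Fabp4 and Cfd were well above background on all 6 arrays. Fabp4 was at -1.58, -2.70 and -3.67 on TCEP arrays and -4.14, -3.82 and -4.20 on vehicle arrays, a difference of 1.41 (SE 0.51). Cfd differed by -0.82 (SE 0.37) and Adipoq by 0.09 (SE 0.16). The part of fat in the member values was not tested.

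The protein p53 is a transcription factor that is held low by the ubiquitin ligase MDM2 and accumulates after DNA damage and other stress. Its targets stop the cell cycle, adjust metabolism and repair, feed back on p53 itself, or start death. The intrinsic death pathway runs through the BCL2 family: survival members hold back the pore formers BAX and BAK, BH3-only members release them, and cytochrome c from mitochondria then lets APAF1 activate caspase 9. Death receptors at the cell surface act through caspase 8. In the kidney, tubule cells use these genes after toxic and ischaemic injury.

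The promoters printed here belong to the higher members Plk2, Plk3, Phlda3 and Gdf15 and, for contrast, to Btg2, whose mean was lower, and Cdkn1a, the best known p53 target. They come from RefSeq on the GRCr8 build, 250 bases before to 50 bases after a listed start, read 5′ to 3′. The table held 34 such windows for 30 of the 37 genes. Capitals mark the cAMP response element core TGACG, the TATA box TATAAA and the p53 half-site, each searched on both strands.
Plk2 promoter (chr2:43702286-43702585, strand +): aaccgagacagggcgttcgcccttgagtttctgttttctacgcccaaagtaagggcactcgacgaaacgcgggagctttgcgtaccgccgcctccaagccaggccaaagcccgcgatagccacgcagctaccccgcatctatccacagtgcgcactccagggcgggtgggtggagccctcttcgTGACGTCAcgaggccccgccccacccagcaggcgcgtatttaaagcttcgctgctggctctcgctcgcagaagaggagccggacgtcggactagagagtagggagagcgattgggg
Plk3 promoter (chr5:135848851-135849150, strand -): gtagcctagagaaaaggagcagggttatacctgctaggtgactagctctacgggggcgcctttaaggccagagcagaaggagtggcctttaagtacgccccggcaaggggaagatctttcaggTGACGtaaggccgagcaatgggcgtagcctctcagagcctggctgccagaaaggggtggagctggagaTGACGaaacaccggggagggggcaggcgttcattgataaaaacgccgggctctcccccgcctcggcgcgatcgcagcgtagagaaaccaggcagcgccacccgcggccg
Btg2 promoter (chr13:48087641-48087940, strand -): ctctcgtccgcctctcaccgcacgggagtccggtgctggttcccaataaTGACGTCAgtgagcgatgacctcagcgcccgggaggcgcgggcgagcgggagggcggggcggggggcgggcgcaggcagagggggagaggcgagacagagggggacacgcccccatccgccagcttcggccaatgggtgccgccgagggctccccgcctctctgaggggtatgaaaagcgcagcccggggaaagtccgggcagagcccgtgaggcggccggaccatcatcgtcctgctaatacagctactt
Phlda3 promoter (chr13:49744753-49745052, strand +): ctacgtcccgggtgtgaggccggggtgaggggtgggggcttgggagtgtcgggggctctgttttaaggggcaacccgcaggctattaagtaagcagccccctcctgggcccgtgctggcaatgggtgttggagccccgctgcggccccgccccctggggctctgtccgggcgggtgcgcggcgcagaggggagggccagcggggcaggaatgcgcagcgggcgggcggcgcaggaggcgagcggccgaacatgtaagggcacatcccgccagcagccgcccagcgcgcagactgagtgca
Gdf15 promoter (chr16:18839015-18839314, strand +): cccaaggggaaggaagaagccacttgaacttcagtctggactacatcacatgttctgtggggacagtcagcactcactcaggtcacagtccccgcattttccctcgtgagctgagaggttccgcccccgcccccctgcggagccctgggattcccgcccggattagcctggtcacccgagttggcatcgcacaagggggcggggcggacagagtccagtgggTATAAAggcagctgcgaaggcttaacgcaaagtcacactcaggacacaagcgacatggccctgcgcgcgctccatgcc
Cdkn1a promoter (chr20:7150682-7150981, strand +): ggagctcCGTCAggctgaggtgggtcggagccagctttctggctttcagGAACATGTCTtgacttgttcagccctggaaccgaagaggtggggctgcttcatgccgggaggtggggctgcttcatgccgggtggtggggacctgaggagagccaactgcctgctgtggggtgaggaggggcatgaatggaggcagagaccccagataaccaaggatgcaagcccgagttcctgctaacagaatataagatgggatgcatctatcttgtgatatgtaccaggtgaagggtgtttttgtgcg
For Gdf15, which has 2 listed starts, the window with the TATA box is shown. The p53 half-site, a degenerate decamer, was found in 6 of the 34 windows, those of Aen, Ccng1, Cdkn1a, Ei24, Gadd45a and Trim24, and in 7.98% of the 33469 windows of all genes. In the Cdkn1a window it begins at position -201 from the listed start, as GAACATGTCT. The windows of Plk2, Plk3, Phlda3 and Gdf15 held no half-site. The full palindrome TGACGTCA, which contains the core on each strand, was in 2 of the 34 windows, those of Plk2 (position -66) and Btg2, and in 1.83% of all windows. The core TGACG was in 13 of 34 and in 21.2% of all windows, with 2 copies for Plk3. The TATA box was in 3 of 34 and in 14.2% of all windows. A match is a run of letters and not a measured binding site. A window without a match says nothing about sequence outside its 300 bases.

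Across the 32 genes the median difference was 0.045, against 0.0085 over all tested genes, and 19 lay above 0, with a background of 52.5%. Of the 32, 0 passed an adjusted p of 0.05 in limma, as did 0% of all tested genes. At an unadjusted p under 0.05, 4 of the 32 were higher with TCEP, against 4.24% of all tested genes. In the other direction, 1 of the 32 was lower, against 4.13% of all tested genes. No overlap between the groups was seen for 7 genes, 21.9% against a background of 15.6%: Plk2, Plk3, Gdf15, Phlda3 and Bcl2l1 lay above (background 8.66%) and Bik and Bcl2 below (background 6.99%). In bulk tissue a different number of cells of a type and a different amount of RNA per cell cannot be told apart. The members spread slightly more than other genes within groups, with a median SD of 0.15 against 0.13. Aen, Gdf15, Tp53inp1 and Tnfrsf12a spread most, between SDs of 0.39 and 0.51, and Bcl2 least at 0.03.

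**Figure D1:**
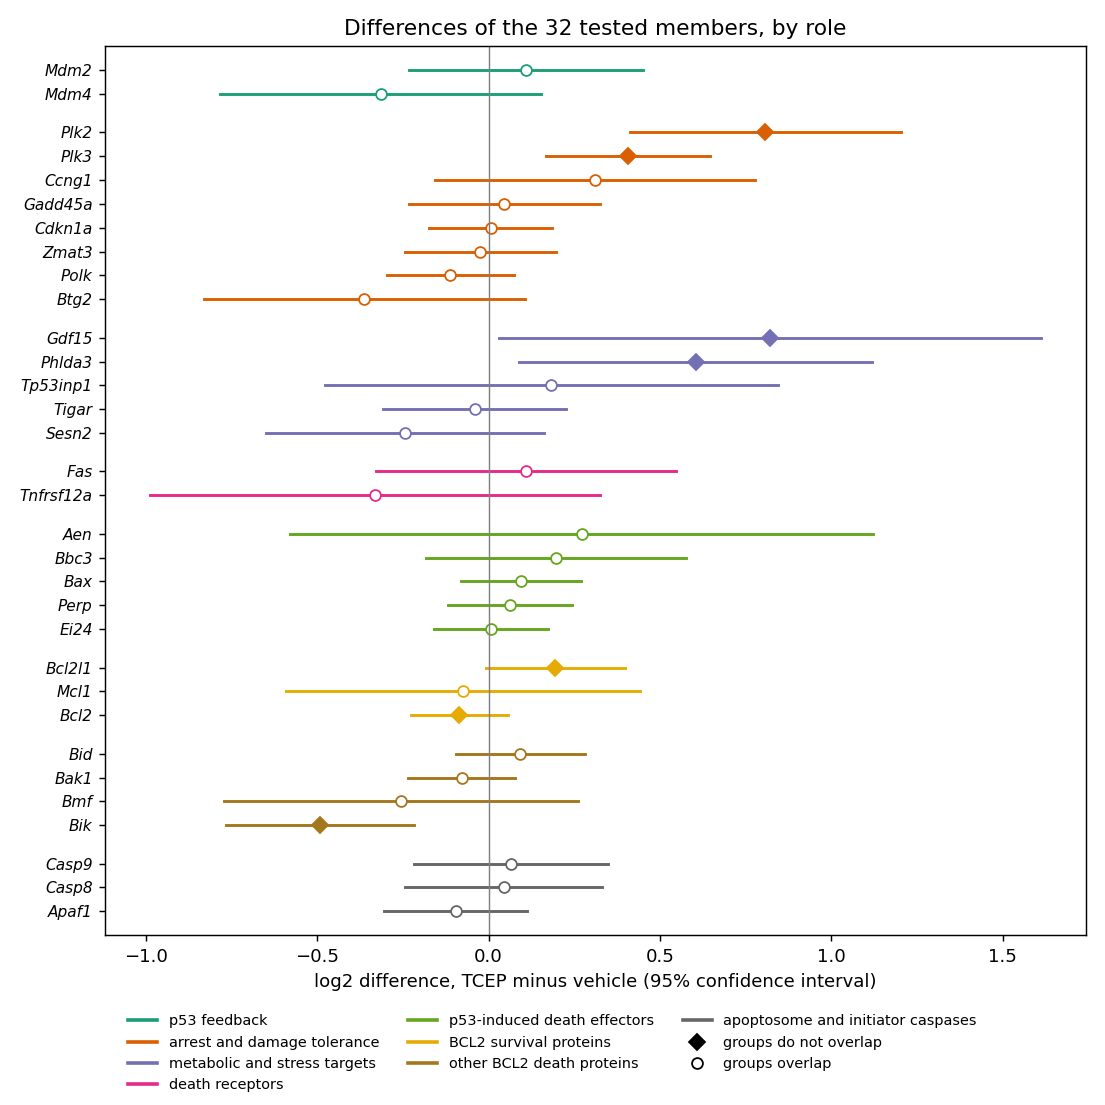
TCEP minus vehicle on the log2 scale for the 32 tested genes, grouped by role, with 95% confidence intervals from limma as bars. Filled diamonds are genes whose 3 TCEP and 3 vehicle arrays do not overlap. Plk2, Plk3, Gdf15, Phlda3 and Bik have intervals that leave out 0, and every other interval includes it.

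For the feedback regulators of p53 the brightest probes overlapped between the groups and neither gene had an unadjusted p under 0.05. Mdm2, the ligase that marks p53 for destruction and is itself a p53 target, was at 1.57, 1.14 and 1.08 on TCEP arrays and 1.15, 1.21 and 1.10 on vehicle arrays. Only TCEP replicate 1 stood above the vehicle range, and the difference of 0.11 (SE 0.14, adjusted p = 0.854) was -0.04 without that array. A second, dimmer probe of Mdm2 differed by 0.15 (SE 0.07), and there the groups did not overlap. Mdm4, a relative of MDM2 that binds and silences p53, differed by -0.32 (SE 0.19, adjusted p = 0.704). Its vehicle replicate 2, at -1.48, lay apart from the other 5 arrays, which were between -2.32 and -2.06, and the difference was -0.10 without it.

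Among the 8 genes of arrest and damage tolerance, 5 lay above 0 and 3 below, with a median of 0.03, and the polo-like kinase genes Plk2 and Plk3 had the larger differences. Plk2, a stress-induced kinase that acts at centrosomes and in checkpoint control, was at -2.41, -2.78 and -2.96 on TCEP arrays and -3.54, -3.36 and -3.67 on vehicle arrays. Every TCEP array lay above every vehicle array. The difference was 0.81 (SE 0.16, adjusted p = 0.528), a 1.75-fold higher mean (95% confidence interval 1.33 to 2.30), and Plk2 ranked 52 among all tested genes by p. With normexp background correction on the median spot signals, which changes dim probes most, it was 0.53.

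Plk3, a related kinase that responds to DNA damage and hypoxic stress, was at -0.99, -0.82 and -1.04 on TCEP arrays and -1.41, -1.44 and -1.21 on vehicle arrays. The groups did not overlap, with a difference of 0.41 (SE 0.10, adjusted p = 0.528), a 1.32-fold higher mean. This rests on its brighter probe. The dimmer probe, well above background on 2 TCEP and 3 vehicle arrays, gave -0.30 (SE 0.44). It was kept through the vehicle group, where its mean is higher, so this difference supports no direction. The mean over both probes, which carries this dim probe, was 0.05, and normexp gave 0.24.

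Cdkn1a, which encodes the cyclin-dependent kinase inhibitor p21 and is the usual readout of p53 arrest, was at 4.83, 4.78 and 4.97 on TCEP arrays and 4.86, 4.88 and 4.82 on vehicle arrays. The groups overlapped and the difference was 0.01 (95% confidence interval -0.17 to 0.19), an interval that runs from 0.89-fold to 1.14-fold. Its other probes scattered far more between animals. The second had 1.75, 1.68 and 0.59 on TCEP arrays and 0.80, 0.63 and 2.25 on vehicle arrays, without a group pattern. The third, well above background on 3 TCEP arrays and 1 vehicle array, differed by 0.71 (SE 0.61). It was kept through the TCEP group, where it is high, so this difference supports no direction. The mean over the 3 probes, 0.28, carries this dim probe.

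Ccng1, which encodes cyclin G1, a p53 target that works with MDM2, was at 2.88, 2.66 and 2.28 on TCEP arrays and 2.56, 2.16 and 2.15 on vehicle arrays. Vehicle replicate 1 lay inside the TCEP range, and the difference was 0.31 (SE 0.19, adjusted p = 0.707), or 0.17 without TCEP replicate 1 and 0.47 without TCEP replicate 3. A second Ccng1 probe split the animals without regard to treatment. It read 2.09 and 1.85 on TCEP replicates 1 and 2 and 1.68 on vehicle replicate 1, but -0.72 on TCEP replicate 3 and -0.53 and -0.77 on vehicle replicates 2 and 3.

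Btg2, an antiproliferative gene that p53 and immediate early signals both induce, was at 0.59, 0.51 and 0.05 on TCEP arrays and 0.90, 0.46 and 0.88 on vehicle arrays. Vehicle replicate 2 lay within the TCEP range, and the difference was -0.36 (SE 0.19, adjusted p = 0.662), or -0.20 without TCEP replicate 3. A second Btg2 probe gave -0.40 (SE 0.18). Gadd45a, a stress sensor that binds PCNA and p21, differed by 0.05 (SE 0.11), the RNA-binding protein gene Zmat3 by -0.03 (SE 0.09) and Polk, a polymerase that copies past damaged bases, by -0.11 (SE 0.08), or -0.057 without vehicle replicate 1. For these 3 genes the groups overlapped.

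**Figure D2:**
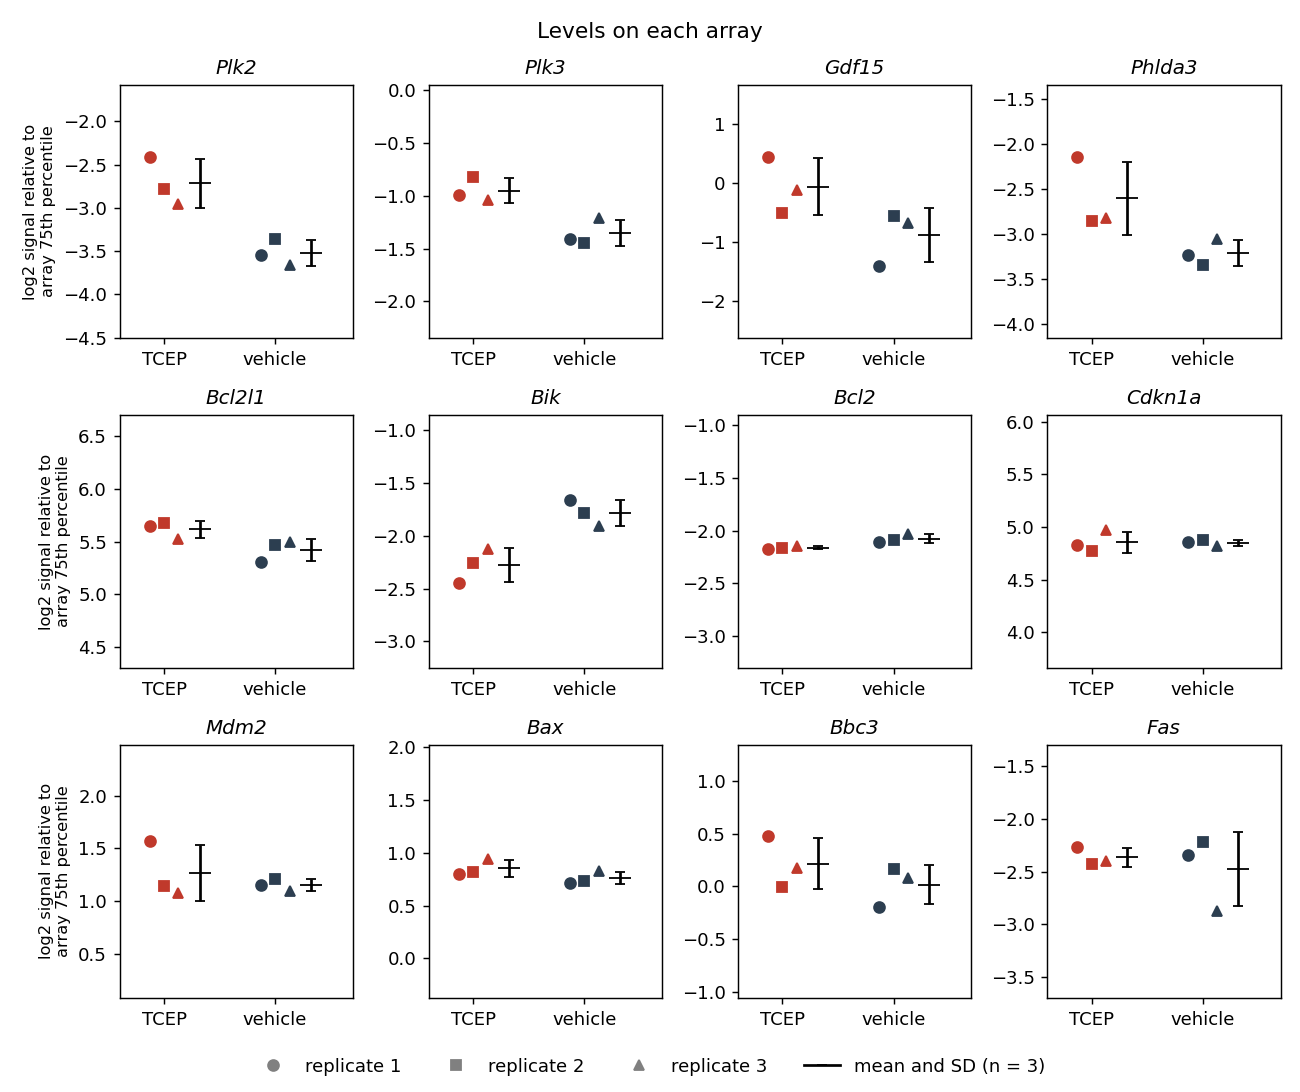
Log2 processed signal relative to the array's 75th percentile for 12 genes, TCEP left and vehicle right in each panel; symbols are the 3 replicates and the bar is the mean with its SD (n = 3). Each panel has its own vertical range. Plk2, Plk3, Gdf15, Phlda3 and Bcl2l1 have all TCEP arrays above all vehicle arrays, Bik and Bcl2 all below, and Cdkn1a, Mdm2, Bax, Bbc3 and Fas overlap.

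Metabolic and stress targets had a median difference of 0.18 over 5 genes, 3 above 0 and 2 below. Gdf15, a secreted factor of the TGF-β superfamily that tissues release under stress, was at 0.45, -0.51 and -0.13 on TCEP arrays and -1.42, -0.56 and -0.68 on vehicle arrays. The groups did not overlap, although TCEP replicate 2 and vehicle replicate 2 differed by little. The difference was 0.82 (SE 0.32, adjusted p = 0.584), a 1.77-fold higher mean with a confidence interval of 1.02-fold to 3.06-fold. It was 0.57 without TCEP replicate 1 and 0.55 without vehicle replicate 1. A second Gdf15 probe gave the same picture, 0.83 (SE 0.30) and no overlap.

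Phlda3, a pleckstrin-homology protein that p53 induces and that competes with AKT for the membrane, was at -2.14, -2.85 and -2.82 on TCEP arrays and -3.24, -3.34 and -3.05 on vehicle arrays. All TCEP arrays lay above, with a difference of 0.60 (SE 0.21, adjusted p = 0.555). TCEP replicate 1 was the highest array, and the difference was 0.37 without it. With normexp it was 0.32. Phlda3 had 1 probe.

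The other metabolic targets did not separate the groups. Sesn2, a sestrin that restrains mTORC1 under stress, was at -0.51, -0.0010 and 0.04 on TCEP arrays and 0.08, -0.03 and 0.21 on vehicle arrays, a difference of -0.24 (SE 0.17) that was -0.068 without TCEP replicate 1. Tigar, a phosphatase that turns glucose toward the pentose phosphate pathway, differed by -0.04 (SE 0.11). Tp53inp1, a cofactor of p53 and of autophagy, differed by 0.18 (SE 0.27), and this became -0.03 without vehicle replicate 2.

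In the role group named death receptors, which also takes in the TWEAK receptor gene Tnfrsf12a, Fas and Tnfrsf12a alone were measured. The median of this group describes these 2 genes. Fas, the receptor of Fas ligand, was at -2.26, -2.43 and -2.40 on TCEP arrays and -2.34, -2.21 and -2.87 on vehicle arrays by its brightest probe. The TCEP arrays lay within the vehicle range, with a difference of 0.11 (SE 0.18, adjusted p = 0.889). Its 2 dimmer probes were each well above background on 1 TCEP and 3 vehicle arrays, so they were kept through the vehicle group, where they are high, and their differences support no direction. One read -5.82, -6.11 and -6.01 on TCEP arrays and -5.18, -5.27 and -5.39 on vehicle arrays, a difference of -0.70 (SE 0.10), and the other differed by -1.56 (SE 0.60). Neither passed the adjusted threshold when every detected probe was tested. The mean over all 3 probes, -0.72, carries these dim values. Tnfrsf12a, the receptor of the cytokine TWEAK, which tubules express more when injured, differed by -0.33 (SE 0.27), with -0.34 on its second probe. Vehicle replicate 2 was its highest array at 1.39, and the difference was -0.065 without it, -0.20 without TCEP replicate 3 and -0.50 without vehicle replicate 1.

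The p53-induced death effectors had 5 measured genes, all above 0 by small amounts, though Perp and Ei24 lay below it with normexp, with a median of 0.09 and no gene at an unadjusted p under 0.05. Bax, the pore former of the mitochondrial outer membrane, was at 0.80, 0.82 and 0.95 on TCEP arrays and 0.72, 0.74 and 0.83 on vehicle arrays. Vehicle replicate 3 lay inside the TCEP range by a narrow margin, and the difference was 0.09 (SE 0.07, adjusted p = 0.752), or 0.049 without TCEP replicate 3. Bbc3, the BH3-only killer PUMA, was at 0.47, -0.01 and 0.18 on TCEP arrays and -0.19, 0.16 and 0.08 on vehicle arrays. It differed by 0.20 (SE 0.15, adjusted p = 0.762), or 0.067 without TCEP replicate 1, 0.093 without vehicle replicate 1 and 0.31 without TCEP replicate 2. Aen, an apoptosis-enhancing nuclease, had the widest spread, at 3.56, 3.47 and 2.42 on TCEP arrays and 2.70, 3.28 and 2.65 on vehicle arrays. Its difference of 0.27 (SE 0.35) ranged from 0.07 without TCEP replicate 1 to 0.64 without TCEP replicate 3. The other detected Aen probes gave 0.0037 (SE 0.14) and 0.23 (SE 0.21), with overlap. Perp, a desmosome-associated p53 effector, differed by 0.06 (SE 0.07), between 0.024 without TCEP replicate 3 and 0.11 without vehicle replicate 1, and Ei24, an endoplasmic reticulum protein induced by p53, by 0.01 (SE 0.07).

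Of the survival members of the BCL2 family, Bcl2l1 lay above 0, and Bcl2 and Mcl1 lay below it, Mcl1 above it with array weights. Bcl2l1, which encodes BCL-XL, the guard of mitochondrial integrity, was at 5.65, 5.68 and 5.53 on TCEP arrays and 5.30, 5.47 and 5.50 on vehicle arrays. The groups did not overlap, though TCEP replicate 3 and vehicle replicate 3 nearly met. The difference was 0.19 (SE 0.08, adjusted p = 0.606), a 1.14-fold higher mean. All 6 detected Bcl2l1 probes lay above 0, between 0.12 and 0.26, with no overlap for 3 of them, against 15.3% of all 41040 detected probes. These probes read the same gene in the same 6 animals and are not separate evidence. Normexp gave 0.35 for the brightest.

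Bcl2, the founding survival gene of the family, was at -2.17, -2.16 and -2.15 on TCEP arrays and -2.10, -2.09 and -2.03 on vehicle arrays. The groups did not overlap but lay close, with a difference of -0.09 (SE 0.06, adjusted p = 0.725) that was -0.030 with normexp. A dimmer Bcl2 probe gave -0.23 (SE 0.20) with overlap. Mcl1, a short-lived survival protein, was at 1.84, 2.07 and 1.69 on TCEP arrays and 1.83, 1.62 and 2.37 on vehicle arrays. It differed by -0.07 (SE 0.21, adjusted p = 0.943), and by 0.14 without vehicle replicate 3.

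The remaining death members had 3 of 4 genes below 0 and a median of -0.17. Bik, a BH3-only protein of the endoplasmic reticulum, was at -2.45, -2.26 and -2.13 on TCEP arrays and -1.66, -1.79 and -1.91 on vehicle arrays. Every TCEP array lay below every vehicle array, and the difference was -0.49 (SE 0.11, adjusted p = 0.528), or 0.71 of the vehicle level. Leaving out any single array kept it between -0.57 and -0.41, and normexp gave -0.24. Bik had 1 probe and ranked 101 by p. Bmf, a BH3-only protein released from the cytoskeleton, was at -1.29, -1.86 and -2.10 on TCEP arrays and -1.59, -1.39 and -1.51 on vehicle arrays. It differed by -0.26 (SE 0.21), which became -0.49 without TCEP replicate 1 and -0.08 without TCEP replicate 3. Bak1, the second pore former, differed by -0.08 (SE 0.06), or -0.049 without vehicle replicate 1, and Bid, which links caspase 8 to mitochondria, by 0.09 (SE 0.08), or 0.15 without TCEP replicate 1.

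By their brightest probes, the initiator caspases and their scaffold APAF1 differed by less than the SD within groups. Casp9 was at -1.62, -1.50 and -1.57 on TCEP arrays and -1.52, -1.50 and -1.87 on vehicle arrays, a difference of 0.07 (95% confidence interval -0.22 to 0.35). Its 2 other probes gave 0.19 and 0.23, with overlap. Casp8 differed by 0.04 (SE 0.12) and Apaf1 by -0.10 (SE 0.09, and -0.18 on a second probe). The difference for Apaf1 was -0.035 without TCEP replicate 3 and -0.15 without vehicle replicate 1.

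**Figure D3:**
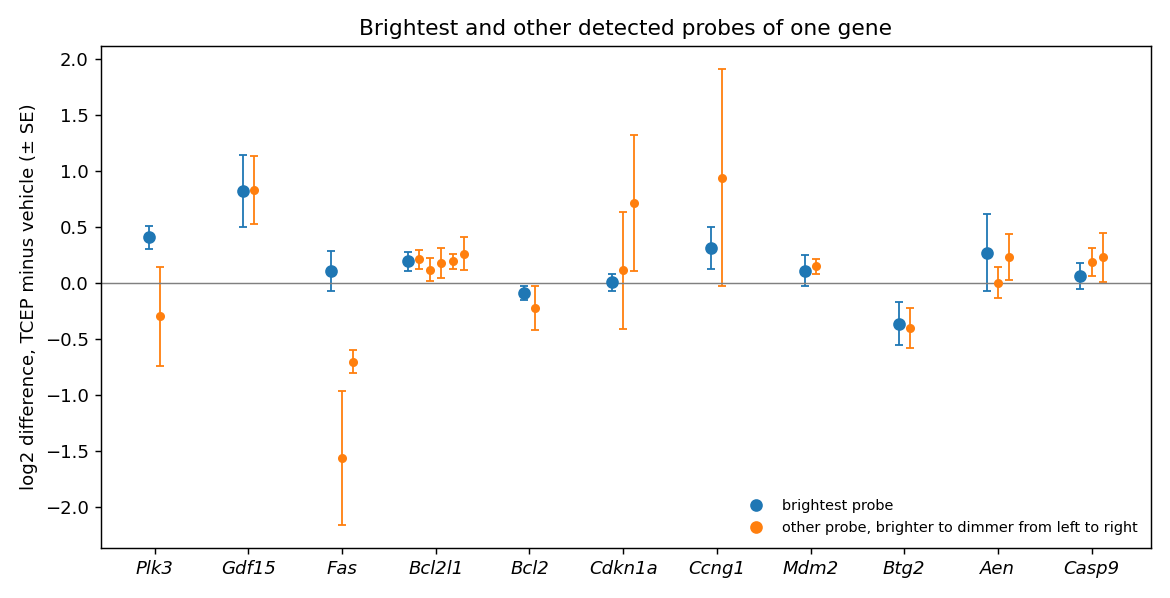
TCEP minus vehicle on the log2 scale with its SE for each detected probe of 11 genes with several probes, from the fit of every detected probe by itself; the brightest probe is blue and the others orange. The dimmer Fas probes and the dimmer Plk3 probe lie below 0 while the brightest probes lie above it, and these dim probes were not well above background on every array. All 6 Bcl2l1 probes lie between 0.12 and 0.26.

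Of 17 members with several detected probes, 15 had all of them on the same side of 0, and Fas and Plk3 did not. In both of these, the probes on the other side were not well above background on every array. Among the 15, the same was true of the third Cdkn1a probe. When 1 array at a time was left out, between 3 and 7 members stood at an unadjusted p under 0.05, as did 5.96% to 8.60% of all tested genes. Plk2, Plk3 and Bik did so in each of these 6 fits, while Gdf15 did in 2 of them and Phlda3 in 4. Without vehicle replicate 1 the count was 3, Plk2, Plk3 and Bik.

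**Figure D4:**
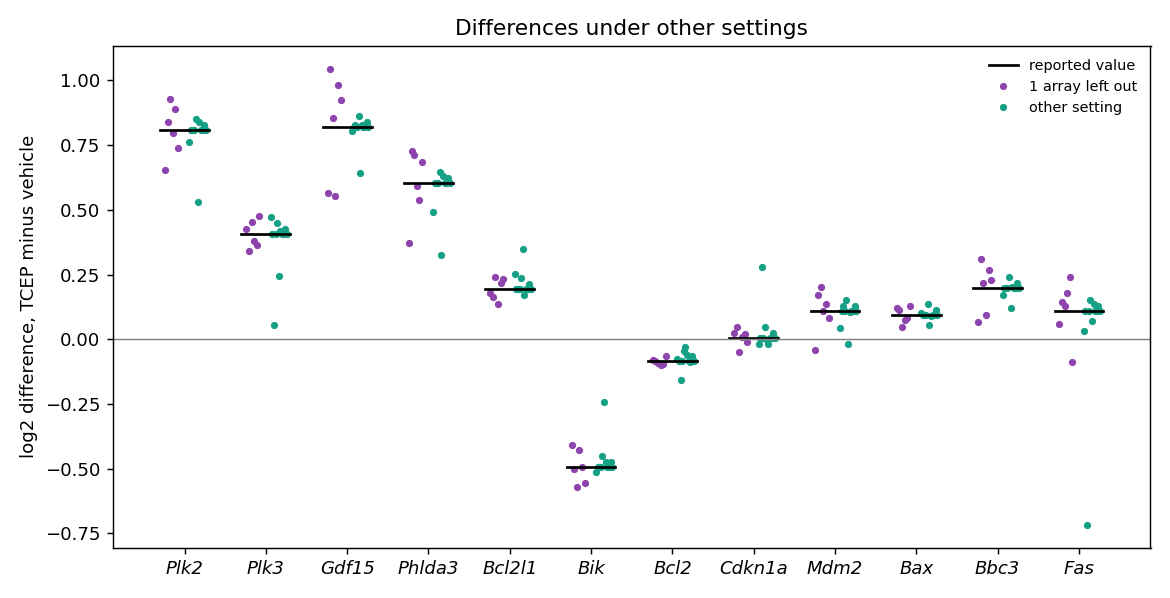
TCEP minus vehicle on the log2 scale for 12 genes: the black line is the reported value, purple points leave out 1 array and green points change another setting. Plk2, Gdf15, Phlda3 and Bcl2l1 stay above 0 and Bik and Bcl2 below 0 at every point, Plk3 comes down to 0.05 with the mean over probes, and Fas goes to -0.72 there.

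Other genes of the pathway came from 5 lists, also chosen with earlier results of these data known. They held 99 genes, of which 83 were tested. 46 lay above 0 and 37 below, with a median of 0.03. None passed the adjusted threshold, and 12 (14.5%) had an unadjusted p under 0.05, 7 higher and 5 lower, against 8.36% of all tested genes.

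In the list of the p53 family, kinases and ligases, 2 of 12 genes lay above 0 and 10 below (median -0.07). Chek1, the checkpoint kinase of stalled replication, differed by 0.30 (SE 0.09), and the deubiquitinase gene Usp7, which stabilises MDM2, by -0.20 (SE 0.07). Each had no overlap between the groups. Of 29 other p53 targets, 14 lay above and 15 below (median -0.02), with 3 higher and 2 lower at an unadjusted p under 0.05, against 4.24% and 4.13% of all tested genes. Ckap2, a spindle protein, was higher by 1.11 (SE 0.32) and Gtse1, a microtubule protein that also restrains p53, by 1.00 (SE 0.29), and Gadd45b, a stress-induced relative of Gadd45a, was lower by a log2 difference of -0.48 (SE 0.13). Gtse1 was dim, well above background on 3 TCEP and 2 vehicle arrays, so it entered the test through the group where it was high. Normexp gave 0.44 for Gtse1, 0.085 for Chek1 and -0.30 for Gadd45b, and the mean over probes gave -0.092 for Usp7.

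Markers of dividing cells were higher beside Ckap2, Gtse1 and Chek1, genes of the dividing cell themselves. All 8 measured of 10 such markers had higher means, with summed linear levels of 7.32 to 8.41 on TCEP arrays and 3.32 to 6.30 on vehicle arrays. Of the 8, 7 were higher at an unadjusted p under 0.05, against 4.24% of all tested genes. No overlap between the groups was seen for 7 of them (87.5%, against 15.6% of all tested genes). Mki67 and Top2a had no named probe. The part of these cells in the member values was not tested. Immediate early genes, which respond to handling and are induced with Plk2, Plk3 and Btg2 in many cells, lay lower in 8 of 11 measured, with summed levels of 31.6 to 35.0 on TCEP arrays and 33.7 to 40.0 on vehicle arrays. Egr1, Zfp36 and Junb lay above 0, by 0.21, 0.11 and 0.08. Fos, named after its values were seen, had the lowest difference of the 11. It was at -3.94, -4.26 and -4.29 on TCEP arrays and -1.68, -2.96 and -4.12 on vehicle arrays, with overlap. Of the 11, 1 had no overlap (9.09%, against 15.6% of all tested genes), Atf3, which differed by -0.60 (SE 0.17). The part of the immediate early genes in the member values was not tested.

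Further down the pathway, the executioner caspases, inhibitors of apoptosis and mitochondrial factors had 13 of 18 genes above 0 (median 0.04). Endog, a mitochondrial nuclease, was lower by a log2 difference of -0.34 (SE 0.10), Birc5, which encodes survivin and belongs to the markers of dividing cells too, was higher by 0.46 (SE 0.15), and Cycs, cytochrome c, by 0.30 (SE 0.12).

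In death receptor signalling 9 of 12 genes lay above 0 (median 0.07). Cflar, the caspase 8 decoy c-FLIP, was at 2.77, 3.22 and 2.67 on TCEP arrays and 2.39, 2.40 and 2.39 on vehicle arrays. All TCEP arrays lay above, with a difference of 0.49 (SE 0.15, adjusted p = 0.543) that was 0.32 without TCEP replicate 2. Of the other BCL2 family, 8 of 12 lay above 0 (median 0.06), and Bcl2l14 was lower by a log2 difference of -0.22 (SE 0.09), or -0.12 with normexp. Neutrophil markers, 3 of 5 measured, had summed levels of 0.34 to 0.74 on TCEP arrays and 0.37 to 2.69 on vehicle arrays. The highest value was on vehicle replicate 2, where the summed macrophage and lymphocyte markers were highest too. The members Mdm4, Tnfrsf12a, Fas, Gadd45a and Casp9 were highest on that array, and the other tested members were highest on other arrays. The lead was narrow for Casp9, at -1.50365 against -1.50439 on TCEP replicate 2. It was narrow for Fas too, at -2.21 against -2.26 on TCEP replicate 1. More members were highest on TCEP replicate 1, namely Mdm2, Ccng1, Plk2, Gdf15, Phlda3, Bbc3, Aen, Ei24 and Bmf. Distal and connecting tubule markers were lower in all 3 measured, 2 of them at an unadjusted p under 0.05 (background 4.13%). Their summed levels were 17.0 to 19.7 on TCEP arrays and 18.4 to 31.3 on vehicle arrays. Collecting duct markers were lower in 4 of 5, 3 of them at an unadjusted p under 0.05 (background 4.13%). Their summed levels were 123.3 to 130.1 on TCEP arrays and 121.1 to 174.2 on vehicle arrays. Podocyte markers were lower in 5 of 5, at 22.9 to 31.3 on TCEP arrays and 24.1 to 30.7 on vehicle arrays. Macrophage markers were lower in all 7 measured, at 95.9 to 103.1 on TCEP arrays and 104.6 to 142.6 on vehicle arrays. Lyz2, the brightest of them, weighs most in this sum, and each of the 7 genes by itself overlapped between the groups. The mean deviation of the 7 genes from their own means was lowest on vehicle replicate 1, at -0.17. It was -0.064, -0.075 and -0.12 on the TCEP arrays, and 0.33 and 0.099 on vehicle replicates 2 and 3. Of the podocyte, macrophage and neutrophil markers, 0 had an unadjusted p under 0.05. The part of these cells in the member values was not tested.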

How the data were processed

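Scanner files of 6 arrays were used, 3 TCEP and 3 vehicle, grouped by their titles. The authors read the scans with Agilent Feature Extraction, version 10.7.1.1 per the file headers and 10.7 per the submitters' processing notes. Its deposited output is a linear intensity per spot, from which background had been taken off with spatial detrending, without scaling between arrays. The deposited series matrix holds the ratio of that signal to a constant per array, within 0.15% of the array's 75th percentile, as checked against the scanner files, with column medians of 0.104 to 0.107 and no centring of genes seen.

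Of 61657 non-control probes, 12 marked as outliers were left out, and 27460 were named through accessions in a RefSeq table of GRCr8, standing for 15284 genes. Log2 processed signal minus the array's log2 75th percentile was used. The brightest probe represented a gene, which was tested if well above background on all arrays of a group. The fit used R 4.3.3 and limma 3.58.1, lmFit then eBayes, with only the group in the model, two-sided tests and 5.93 degrees of freedom. It gave differences, SEs and Benjamini-Hochberg adjusted p, with a threshold of 0.05, and was tested on simulated data. Figures were drawn with Python 3.11.15 and matplotlib 3.10.9. The number of arrays limits the precision. The members, lists and motifs were chosen with earlier results of these data known. Values on every array are given for members whose groups do not overlap or with an unadjusted p under 0.05 and for 11 fixed readouts, and for some others chosen after their values were seen. Of each pathway list, up to 3 genes with the smallest p under 0.05 are named; 1 gene fixed for naming beside them is not reported here. Alternatives were the scaling, background correction (normexp on median signals, offset 50), dim-probe filter, probe choice, series matrix, replicate block, variance model, array weights and leaving out each array. Slide and scan each held 1 group and could not be a block. No label says that a replicate number marks a shared litter or day, and same-numbered arrays had correlations of -0.15, -0.10 and 0.23 between their deviations from the group means.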

Additional observations from a re-analysis of the deposited data

How the results depend on the processing

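Besides the reported setting, 17 others were run for the members. No member passed the adjusted threshold in any of them, and 19 of 32 members kept the sign of their difference in all, among them Plk2, Plk3, Gdf15, Phlda3, Bcl2l1, Bcl2 and Bik. Leaving out 1 array gave 0 to 1 genes past the adjusted threshold over all tested genes (the 1 was Dio2, no member, without TCEP replicate 3), 5.96% to 8.60% of genes and 3 to 7 members (9.38% to 21.9%) at an unadjusted p under 0.05, and 23.1% to 28.1% of genes and 9 to 11 members without overlap. The median difference then ran from -0.0095 to 0.055 for all members, -0.17 to 0.018 for p53 feedback, -0.025 to 0.074 for arrest, -0.011 to 0.47 for metabolic targets, -0.26 to 0.088 for death receptors, 0.049 to 0.13 for death effectors, -0.10 to 0.14 for BCL2 survival, -0.24 to -0.082 for the other BCL2 death genes and -0.053 to 0.10 for the apoptosome. Single genes changed sign there: Mdm2 from -0.043 to 0.20, Cdkn1a from -0.049 to 0.046, Gadd45a from -0.069 to 0.13, Zmat3 from -0.072 to 0.037, Tigar from -0.12 to 0.043, Tp53inp1 from -0.025 to 0.47, Fas from -0.088 to 0.24, Ei24 from -0.034 to 0.049, Mcl1 from -0.23 to 0.14, Casp8 from -0.064 to 0.10 and Casp9 from -0.053 to 0.13. Normexp on median signals gave 13.4% of genes at an unadjusted p under 0.05, a median of -0.036 for all members and -0.084 for the apoptosome, and values of -0.017 for Mdm2, -0.0031 for Cdkn1a, -0.082 for Gadd45a, -0.043 for Perp, -0.14 for Ei24, -0.017 for Bid and -0.084 for Casp8. Centring on spike-ins gave 3.18% of genes at an unadjusted p under 0.05, and 5.02% of genes and 2 members without overlap. Array weights gave -0.018 for Cdkn1a, -0.025 for Ei24 and 0.032 for Mcl1, quantile normalization -0.017 for Cdkn1a, and no scaling 0.017 for Zmat3 and 0.0015 for Tigar. The mean over probes gave -0.53 for the death receptor median and -0.72 for Fas, and no filter on dim probes -0.26 for the other BCL2 death genes, with 1 more gene in that median. With the replicate block, 5 members had an unadjusted p under 0.05, Ccng1 in place of Gdf15, against 7.24% of all genes, and 7 did not overlap, against 15.6%. The numbers were not shown to pair the animals. Apart from the changes in genes or arrays entered, the cause of these shifts was not tested. Pmaip1 and Bcl2l11 were limited by signal over background, and 3 arrays a group limit every comparison.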
